A study of Homo sapiens with 2 samples.

Results

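The genes described here encode the classical axon guidance receptors and ligands. They were taken by gene name as the ROBO, SLIT, SEMA, PLXN, NRP, EPHA, EPHB, EFNA, EFNB, UNC5 and NTN families together with DCC and NEO1, which gave 70 of the 20263 genes in the deposited table. Of these, 35 encode receptors and 35 encode ligands. Levels were measured by RNA-seq in H9, an established human embryonic stem cell line. One library came from cells treated for 48 h with small interfering RNA against HNRNPA1 (siHNRNPA1), which encodes the splicing regulator hnRNP A1, and the other from cells treated for the same time with a control small interfering RNA (sicontrol). There was 1 library per condition and no replicate check, so no p-value is given, and intervals (95%, exact) cover counting error only. A level is the FPKM (fragments per unit of transcript length and of library size) summed over a gene's transcripts, and genes with a mean of at least 1 FPKM over both libraries were kept. A fold is log2((siHNRNPA1 + 1)/(sicontrol + 1)), which understates the change of weakly expressed genes.

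Guidance molecules are cell-surface or secreted proteins that attract or repel growing axons and also act outside the nervous system, in cell migration, vessel growth and tissue boundaries. Slits signal through Robo receptors, and netrins through DCC, neogenin and the Unc5 receptors. Semaphorins bind plexins, with neuropilins as co-receptors for most secreted class 3 semaphorins, and membrane-bound ephrins bind Eph receptor tyrosine kinases on the neighbouring cell.

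The libraries held 28147828 estimated counts for siHNRNPA1 and 26680342 for sicontrol. HNRNPA1 itself stood at 180 FPKM in siHNRNPA1 cells and 663 FPKM in sicontrol cells (log2 fold -1.88), and it has processed pseudogenes that could share its reads. All 6 pluripotency markers examined were measured in both libraries, with a summed level of 2007 FPKM in siHNRNPA1 cells and 1827 FPKM in sicontrol cells. Within that list POU5F1 alone had 1355 FPKM in siHNRNPA1 cells and 864 FPKM in sicontrol cells (log2 fold 0.65). The other 5 markers had folds below 0. SOX2 and DPPA4 were lower by 2-fold or more (-1.10 and -1.54), and NANOG, TDGF1 and LIN28A stood at -0.31, -0.09 and -0.01. Of 6 neural markers 3 were kept, and the list summed to 214 FPKM in siHNRNPA1 cells against 78.4 FPKM in sicontrol cells. NES and TUBB3 were higher in siHNRNPA1 cells (log2 fold 1.17 and 2.01). The other neural markers did not follow them. MAP2 had 0.873 FPKM in siHNRNPA1 cells and 1.31 FPKM in sicontrol cells, DCX had 0.255 FPKM in siHNRNPA1 cells and 0.619 FPKM in sicontrol cells, and PAX6 and SOX1 were under 0.2 FPKM in both. Of the endoderm markers SOX17 and GATA6 were listed at 0 in both libraries, FOXA2 had 123 counts in siHNRNPA1 cells and 0 in sicontrol cells, and the list summed to 5.13 FPKM in siHNRNPA1 cells and 2.13 FPKM in sicontrol cells. Of the fibroblast markers DCN, LUM and COL3A1 were listed at 0 in both libraries, while THY1, COL1A1 and COL1A2 were kept, and the list summed to 215 FPKM in siHNRNPA1 cells and 260 FPKM in sicontrol cells. The mesoderm markers measured summed to 2.66 FPKM in siHNRNPA1 cells and 3.48 FPKM in sicontrol cells. In bulk RNA, fewer cells of a type and less RNA per cell cannot be told apart, and the part of these markers in the results below was not tested.

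Of the 70 guidance genes, 48 were kept. In siHNRNPA1 cells 10 of the 48 were lower by 2-fold or more (20.8%), against 21.9% of all genes kept. Higher by that much were 2 (4.17%), against 12.4% of all genes kept. The share of lower genes was thus close to the background. The lower genes were the receptors ROBO1, ROBO2, UNC5D, EPHA7 and EPHB1 and the ligands SEMA4D, SLIT2, SEMA5A, SEMA3A and EFNB2. The higher genes were the transmembrane semaphorins SEMA4C and SEMA6B. The median fold was -0.10 over the 48 genes and -0.13 over all genes, and the summed level was 688 FPKM in siHNRNPA1 cells and 667 FPKM in sicontrol cells. Receptors (24 kept, 5 lower and 0 higher, median fold -0.02) and ligands (24 kept, 5 lower and 2 higher, median fold -0.18) had the same number of lower genes. The plot of levels by family shows both values of each gene.

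**Figure D1:**
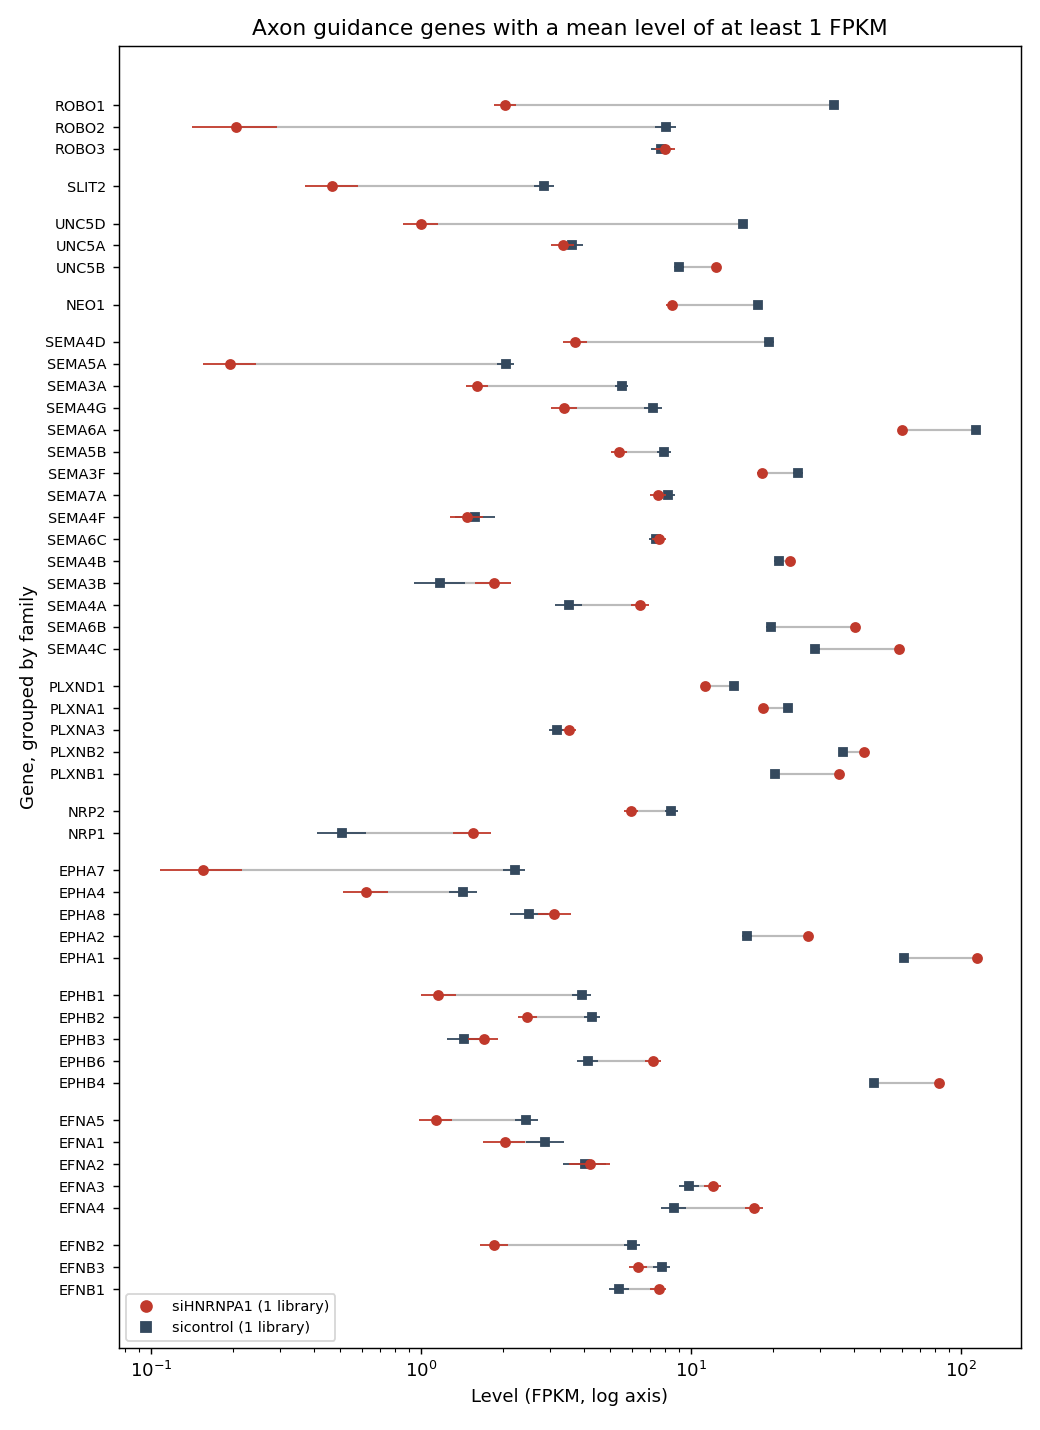
Levels (FPKM, log axis) of the 48 axon guidance genes kept, by family, in siHNRNPA1 cells (red circles) and sicontrol cells (blue squares), 1 library each, with lines for 95% counting intervals. ROBO1, ROBO2, UNC5D and SEMA4D have the widest gaps among genes above 5 FPKM in sicontrol cells, while ROBO3, EFNA2 and SEMA6C have nearly the same level in both.

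The Robo receptors held 2 of the 3 widest differences. ROBO1, which repels axons and migrating cells on binding Slit and lies on chromosome 3 (78597240 to 79767815, GRCh38, minus strand), had 2.04 FPKM in siHNRNPA1 cells (interval 1.86 to 2.24, 459 counts) and 33.9 FPKM in sicontrol cells (32.9 to 34.8, 5345 counts), a log2 fold of -3.52. ROBO2, which lies beside it on chromosome 3 (75906695 to 77649964, plus strand) and is also a Slit receptor, had 0.206 FPKM in siHNRNPA1 cells (0.141 to 0.291, 32 counts) and 8.04 FPKM in sicontrol cells (7.33 to 8.79, 477 counts), a log2 fold of -2.91. The level in siHNRNPA1 cells was thus 6.04% of that in sicontrol cells for ROBO1 and 2.56% for ROBO2. On counts the ratio of the libraries' shares was 0.0814 (0.0738 to 0.0896) for ROBO1 and 0.0636 (0.0430 to 0.0910) for ROBO2, where the short transcript ROBO2-210 held 39.4% of the FPKM but 79 of 477 counts in sicontrol cells. ROBO3, which takes part in midline crossing and in mammals binds Slits weakly if at all, had 7.99 FPKM in siHNRNPA1 cells (7.30 to 8.72, 499 counts) and 7.74 FPKM in sicontrol cells (7.06 to 8.48, 467 counts). Its log2 fold was 0.04 and its intervals overlapped. ROBO4, the endothelial member, was under 0.02 FPKM in both libraries.

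The Slit ligands were scarce. SLIT2, a large secreted ligand of ROBO1 and ROBO2, had 0.467 FPKM in siHNRNPA1 cells (0.371 to 0.581, 81 counts) and 2.85 FPKM in sicontrol cells (2.62 to 3.10, 548 counts), a log2 fold of -1.39. SLIT1 and SLIT3 lay under the filter. SLIT1 had 48 counts in siHNRNPA1 cells and 117 in sicontrol cells, and SLIT3 had 37 counts in siHNRNPA1 cells and 146 in sicontrol cells. Lower values in siHNRNPA1 cells were seen for all 3 Slits and for the 2 Robo receptors that bind them with high affinity in mammals. These genes all span at least 100 kb. Of all genes that long, 49.0% of those kept were at least 2-fold lower. Of those under the filter, 56.0% had a ratio of count shares with an interval below 1.

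ROBO1 is transcribed from a distal and from a proximal start, and the transcripts of each start begin their coding sequence with a different exon. The coding part of each first coding exon is shown to set the starts apart, with the start codon in capitals. The distal one is that of ROBO1-202 at chr3:79589824-79589911 and the proximal one that of ROBO1-204 at chr3:79018407-79018461 (both GRCh38, minus strand, from GENCODE release 29 transcripts).
ROBO1 distal coding start: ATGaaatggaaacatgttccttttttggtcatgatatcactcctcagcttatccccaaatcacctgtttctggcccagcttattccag
ROBO1 proximal coding start: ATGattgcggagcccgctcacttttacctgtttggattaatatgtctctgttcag
The distal transcript ROBO1-202 had 2.001 FPKM in siHNRNPA1 cells (448 counts) and 0.756 FPKM in sicontrol cells (159 counts). The 5 proximal transcripts together had 0.0436 FPKM in siHNRNPA1 cells (11 counts) and 31.1 FPKM in sicontrol cells (5150 counts). The difference in ROBO1 was thus one of the proximal transcripts, and the distal transcript was higher in siHNRNPA1 cells. Within the proximal group ROBO1-204 was listed at 0 in siHNRNPA1 cells and at 22.8 FPKM in sicontrol cells. The transcripts share most of their exons, and how the authors divided reads among them is not given in the sources used here, so these are estimates and not counts of reads over each start.

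The same transcripts differ in 2 short exons, which are shown with ROBO2's exon at the like position because of the small size and the similar surroundings. Capitals mark the exon, and the lower-case letters are the 20 bases of the spliced transcript on either side. The ROBO1 exon of 9 bases lies at chr3:78693348-78693356 and that of 27 bases at chr3:78647629-78647655 (minus strand), and the ROBO2 exon of 12 bases at chr3:77527403-77527414 (plus strand).
ROBO1 9-base exon: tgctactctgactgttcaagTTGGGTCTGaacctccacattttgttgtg
ROBO1 27-base exon: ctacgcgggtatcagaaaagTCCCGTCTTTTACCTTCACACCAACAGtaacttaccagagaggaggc
ROBO2 12-base exon: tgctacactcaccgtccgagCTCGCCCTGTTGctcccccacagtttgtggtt
The bases beside the 9-base exon of ROBO1 and the 12-base exon of ROBO2 were identical at 15 of 20 upstream and 14 of 20 downstream positions. The inclusion of an exon was the percentage of FPKM in transcripts that contain it. The base was the transcripts reaching across it that contain it or have no exon overlapping it. Transcripts with an overlapping exon of other boundaries were left out. The 9-base exon of ROBO1 had an inclusion of 0% in siHNRNPA1 cells and 82.3% in sicontrol cells. The 0 stands for 0 of 459 counts, which allows a share of up to 0.654% by counting alone. Its 27-base exon ran the other way, with 100% in siHNRNPA1 cells and 4.38% in sicontrol cells. An inclusion here is a sum over whole transcripts. In sicontrol cells the 9-base exon was counted from ROBO1-204 and ROBO1-209 and was absent from ROBO1-212, at 4.24 FPKM, while the 27-base exon was counted from ROBO1-201 and ROBO1-202 in both libraries. The 2 inclusions are therefore not independent. The ROBO2 exon had an inclusion of 9.09% in siHNRNPA1 cells (2 counts with it and 28 without), a value that rests on few counts. In sicontrol cells its inclusion was 84.1% (247 with and 81 without). There it was counted from ROBO2-212 alone, which is annotated without its 3′ end, at 2.36 FPKM. Transcripts reaching across the exon without containing it had 0.446 FPKM, and the whole gene had 8.04 FPKM.

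Netrins were all under the filter. NTN1, the best known netrin, had 0.900 FPKM in siHNRNPA1 cells and 0.743 FPKM in sicontrol cells, with a count-share ratio of 1.23 whose interval (0.979 to 1.55) spanned 1. Among their receptors, UNC5D, which in mouse also binds FLRT2 on migrating cortical neurons, had 0.996 FPKM in siHNRNPA1 cells (0.856 to 1.15, 182 counts) and 15.6 FPKM in sicontrol cells (15.02 to 16.09, 3315 counts), a log2 fold of -3.05. NEO1 (neogenin), a receptor of netrins and of repulsive guidance molecules, had 8.45 FPKM in siHNRNPA1 cells (8.05 to 8.87, 1646 counts) and 17.7 FPKM in sicontrol cells (17.1 to 18.3, 3027 counts). Its log2 fold of -0.98 fell just inside the 2-fold limit. UNC5B, which is prominent in vessels, had 12.4 FPKM in siHNRNPA1 cells (11.9 to 12.8, 2791 counts) and 9.01 FPKM in sicontrol cells (8.61 to 9.42, 1898 counts), a log2 fold of 0.42. UNC5A had 3.34 FPKM in siHNRNPA1 cells and 3.60 FPKM in sicontrol cells. DCC, the classical attractive netrin receptor, had 13 counts in siHNRNPA1 cells and 19 in sicontrol cells, and at this depth no difference was detectable.

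Semaphorins went in both directions, with 3 of the 15 kept past 2-fold downwards (20%) and 2 past 2-fold upwards (13.3%), both near the shares of all genes (21.9% and 12.4%). SEMA4D, a transmembrane ligand of plexin B1 also known as CD100, had 3.72 FPKM in siHNRNPA1 cells (3.35 to 4.12, 365 counts) and 19.4 FPKM in sicontrol cells (18.6 to 20.2, 2449 counts), a log2 fold of -2.11. SEMA5A, a transmembrane semaphorin with thrombospondin repeats, had 0.196 FPKM in siHNRNPA1 cells (0.155 to 0.245, 77 counts) and 2.05 FPKM in sicontrol cells (1.91 to 2.20, 750 counts), a log2 fold of -1.35. SEMA3A, the secreted collapsin that acts through NRP1 and A plexins, had 1.61 FPKM in siHNRNPA1 cells (1.46 to 1.77, 441 counts) and 5.51 FPKM in sicontrol cells (5.21 to 5.82, 1271 counts), a log2 fold of -1.32. The lower ligands thus came from the secreted class 3 and from the transmembrane classes 4 and 5. SEMA4C, a ligand of plexin B2, had 58.8 FPKM in siHNRNPA1 cells (57.3 to 60.2, 6176 counts) and 28.7 FPKM in sicontrol cells (27.7 to 29.8, 2779 counts), a log2 fold of 1.01. SEMA6B had 40.3 FPKM in siHNRNPA1 cells (39.3 to 41.4, 5338 counts) and 19.6 FPKM in sicontrol cells (18.9 to 20.4, 2427 counts), a log2 fold of 1.00. Both lay at the 2-fold limit. When TPM replaced FPKM, or with 5 FPKM added in place of 1 FPKM, neither reached it.

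SEMA6A, a transmembrane ligand of plexins A2 and A4, was the most abundant semaphorin, with 60.4 FPKM in siHNRNPA1 cells (59.2 to 61.7, 9702 counts) and 113 FPKM in sicontrol cells (111 to 115, 14985 counts), a log2 fold of -0.89. SEMA4B had 23.2 FPKM in siHNRNPA1 cells and 21.0 FPKM in sicontrol cells. SEMA3F, a secreted ligand of NRP2, had 18.2 FPKM in siHNRNPA1 cells and 24.8 FPKM in sicontrol cells. The other 7 semaphorins kept, SEMA3B, SEMA4A, SEMA4F, SEMA4G, SEMA5B, SEMA6C and SEMA7A, lay between 1.47 and 7.60 FPKM in siHNRNPA1 cells and between 1.18 and 8.20 FPKM in sicontrol cells. Their log2 folds ran from -0.91 for SEMA4G to 0.72 for SEMA4A. The transmembrane SEMA4G had 3.38 FPKM in siHNRNPA1 cells and 7.20 FPKM in sicontrol cells (log2 fold -0.91), and SEMA5B had 5.38 FPKM in siHNRNPA1 cells and 7.90 FPKM in sicontrol cells (-0.48). SEMA4A, known for its part in T cell responses, had 6.45 FPKM in siHNRNPA1 cells and 3.51 FPKM in sicontrol cells (0.72), and SEMA3B, a secreted class 3 member, had 1.85 FPKM in siHNRNPA1 cells and 1.18 FPKM in sicontrol cells (0.39). The other 3 had log2 folds near 0. SEMA7A had 7.52 FPKM in siHNRNPA1 cells and 8.20 FPKM in sicontrol cells (-0.11), SEMA4F had 1.47 FPKM in siHNRNPA1 cells and 1.59 FPKM in sicontrol cells (-0.06), and SEMA6C had 7.60 FPKM in siHNRNPA1 cells and 7.39 FPKM in sicontrol cells (0.03). The SEMA4D transcripts also differed. SEMA4D-208 was listed at 0 in siHNRNPA1 cells and at 15.5 FPKM in sicontrol cells (2102 counts). In siHNRNPA1 cells the SEMA4D transcript with the highest FPKM was SEMA4D-204, with 369 coding bases. It had 1.80 FPKM (110 counts), against 0.731 FPKM (42 counts) in sicontrol cells. On counts the leading one in siHNRNPA1 cells was SEMA4D-212, whose coding length is 2586 bases as in SEMA4D-208. SEMA4D-212 had 0.763 FPKM in siHNRNPA1 cells (145 counts) and 0.205 FPKM in sicontrol cells (37 counts).

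The semaphorin receptors kept were within 2-fold with 1 FPKM added. PLXNB2, the receptor of SEMA4C, had 43.5 FPKM in siHNRNPA1 cells (42.4 to 44.7, 5561 counts) and 36.5 FPKM in sicontrol cells (35.5 to 37.5, 5040 counts), a log2 fold of 0.25. PLXNB1, the receptor of SEMA4D, had 35.2 FPKM in siHNRNPA1 cells and 20.3 FPKM in sicontrol cells (log2 fold 0.76). PLXNA1, a partner of neuropilins, had 18.4 FPKM in siHNRNPA1 cells and 22.7 FPKM in sicontrol cells. PLXND1, the receptor of SEMA3E in vessels, had 11.3 FPKM in siHNRNPA1 cells and 14.4 FPKM in sicontrol cells, and PLXNA3 had 3.52 FPKM in siHNRNPA1 cells and 3.16 FPKM in sicontrol cells. NRP2 had 5.98 FPKM in siHNRNPA1 cells (5.61 to 6.36, 1003 counts) and 8.41 FPKM in sicontrol cells (7.95 to 8.88, 1271 counts), a log2 fold of -0.43. NRP1, the co-receptor of SEMA3A and of vascular endothelial growth factor, had 1.55 FPKM in siHNRNPA1 cells (1.31 to 1.81, 151 counts) and 0.508 FPKM in sicontrol cells (0.410 to 0.623, 93 counts), a log2 fold of 0.76. With 0.1 FPKM added in place of 1 FPKM the log2 fold of NRP1 was 1.44, past 2-fold. Its count-share ratio was 1.54 (1.18 to 2.01). Of the NRP1 level in siHNRNPA1 cells, 25.5% was assigned to NRP1-203 and 27.6% to NRP1-204, short transcripts listed at 0 in sicontrol cells. A short transcript weighs more per count in FPKM. PLXNC1, a receptor of SEMA7A under the filter, had a count-share ratio of 0.360 (0.251 to 0.510).

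Among Eph receptors the abundant members had higher levels in siHNRNPA1 cells without reaching 2-fold. With 1 FPKM added, 2 scarce members were at least 2-fold lower. EPHA1 had 115 FPKM in siHNRNPA1 cells (113 to 117, 12791 counts) and 61.4 FPKM in sicontrol cells (59.9 to 63.0, 6398 counts), a log2 fold of 0.89. EPHB4, the receptor of ephrin B2 that marks veins, had 82.6 FPKM in siHNRNPA1 cells (81.1 to 84.1, 11826 counts) and 47.3 FPKM in sicontrol cells (46.1 to 48.4, 6325 counts), a log2 fold of 0.79. EPHA2 had 26.9 FPKM in siHNRNPA1 cells and 16.1 FPKM in sicontrol cells, and EPHB6, which lacks kinase activity, had 7.20 FPKM in siHNRNPA1 cells and 4.12 FPKM in sicontrol cells. EPHA7, known from neural patterning, had 0.155 FPKM in siHNRNPA1 cells (0.107 to 0.217, 34 counts) and 2.21 FPKM in sicontrol cells (2.01 to 2.43, 439 counts), a log2 fold of -1.48. EPHB1, which steers retinal axons at the optic chiasm, had 1.16 FPKM in siHNRNPA1 cells (0.994 to 1.34, 180 counts) and 3.92 FPKM in sicontrol cells (3.61 to 4.26, 565 counts), a log2 fold of -1.19. Levels of EPHA7 were thus 7.01%, and of EPHB1 29.5%, of those in sicontrol cells. EPHA4, EPHA8, EPHB2 and EPHB3 were within 2-fold with 1 FPKM added, with log2 folds from -0.61 for EPHB2 to 0.23 for EPHA8. EPHB2 had 2.47 FPKM in siHNRNPA1 cells and 4.29 FPKM in sicontrol cells (log2 fold -0.61). EPHA4, a receptor of both ephrin classes, had 0.623 FPKM in siHNRNPA1 cells and 1.43 FPKM in sicontrol cells (-0.58). Without the added 1 FPKM the level of EPHA4 was 43.6% of that in sicontrol cells, past 2-fold. Its count-share ratio was 0.383 (0.306 to 0.478). EPHB3 had 1.70 FPKM in siHNRNPA1 cells and 1.44 FPKM in sicontrol cells (0.15), and EPHA8 had 3.11 FPKM in siHNRNPA1 cells and 2.50 FPKM in sicontrol cells (0.23).

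Of the 8 ephrins, all kept, 1 was at least 2-fold lower with 1 FPKM added, against 21.9% of all genes kept. EFNB2 (ephrin B2), the arterial partner of EPHB4, had 1.86 FPKM in siHNRNPA1 cells (1.64 to 2.09, 276 counts) and 6.03 FPKM in sicontrol cells (5.63 to 6.45, 837 counts), a log2 fold of -1.30. EFNB3 had 6.34 FPKM in siHNRNPA1 cells (5.87 to 6.83, 681 counts) and 7.75 FPKM in sicontrol cells (7.21 to 8.31, 777 counts), a log2 fold of -0.25. EFNA4, one of the lipid-anchored ephrins, had 17.0 FPKM in siHNRNPA1 cells (15.8 to 18.4, 669 counts) and 8.59 FPKM in sicontrol cells (7.69 to 9.58, 327 counts), a log2 fold of 0.91. The ligand EFNB2 and its receptor EPHB4 thus lay on opposite sides of 0. When the libraries were rescaled by their median ratio, EFNA4 and EPHA1 passed 2-fold, at 1.06 and 1.05, and with TPM in place of FPKM the lower NEO1 and SEMA6A did, at -1.17 and -1.05. EFNA1, EFNA2, EFNA3, EFNA5 and EFNB1 had log2 folds from -0.69 for EFNA5 to 0.42 for EFNB1. EFNA5, which maps retinal axons in the midbrain, had 1.13 FPKM in siHNRNPA1 cells and 2.45 FPKM in sicontrol cells (log2 fold -0.69). Without the added 1 FPKM its level was 46.2% of that in sicontrol cells, past 2-fold. EFNA1 had 2.03 FPKM in siHNRNPA1 cells and 2.88 FPKM in sicontrol cells (-0.35). EFNA2 had 4.21 FPKM in siHNRNPA1 cells and 4.03 FPKM in sicontrol cells (0.05), EFNA3 had 11.98 FPKM in siHNRNPA1 cells and 9.82 FPKM in sicontrol cells (0.26), and EFNB1, a transmembrane ephrin of craniofacial development, had 7.55 FPKM in siHNRNPA1 cells and 5.38 FPKM in sicontrol cells (0.42). EFNA3 and EFNA4 share exons on the same strand with the annotated gene AL691442.1 (853 bases with EFNA3 and 189 with EFNA4), so their counts are uncertain. Among the lower genes, EFNB2, SEMA5A and EPHB1 share exon bases with a gene on the opposite strand, and whether counting used strand is not stated.

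The 22 guidance genes under the filter were described by counts. The ratio of count shares, siHNRNPA1 over sicontrol, had an interval wholly below 1 for 11 of them (50%), against 31.8% of the 4913 genes of the table under the filter with any count. It was wholly above 1 for 2, against 16.3% of those genes, and across 1 for 9. The 11 were EPHA5, EPHA6, NTN4, PLXNC1, SEMA3C, SEMA3D, SEMA3E, SEMA6D, SLIT1, SLIT3 and UNC5C. Of these UNC5C, a repulsive netrin receptor, had 58 counts in siHNRNPA1 cells and 285 in sicontrol cells, and SEMA3C, which guides neural crest cells to the heart, had 4 counts in siHNRNPA1 cells and 61 in sicontrol cells. EPHA10 had 62 counts in siHNRNPA1 cells and 21 in sicontrol cells. NTN3 had 10 counts in siHNRNPA1 cells and 0 in sicontrol cells, and the interval of its ratio began at 2.12.

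Most of the lower genes were long, and most had transcripts of low GC content. Of the 10, 9 spanned at least 100 kb, as did 8 of the 36 genes within 2-fold, and 8 had a GC content under 50%, as did 5 of the 36. Their loci spanned 45.4 to 1743 kb (median 524 kb), against a median of 30.01 kb for the 36 genes within 2-fold and 11.04 and 17.22 kb for the higher SEMA4C and SEMA6B. The GC content of their leading transcripts ran from 36.7% to 54.1%. Of 17 guidance genes spanning at least 100 kb, 9 were at least 2-fold lower (52.9%), against 49.0% of the 2096 such genes in the whole table. Of 31 shorter ones, EFNB2 alone was lower (3.23%), against 16.1% of 9825 genes. Under the filter, 16 of the 22 guidance genes spanned at least 100 kb, and the 11 with an interval below 1 were among these 16, against 56.0% of the 1109 such genes under the filter. Long guidance genes were thus lower about as often as long genes of any kind. For GC content under 50%, 8 of 13 guidance genes were lower (61.5%), against 37.9% of 5742 genes. Both splits were chosen after the values had been seen.

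**Figure D2:**
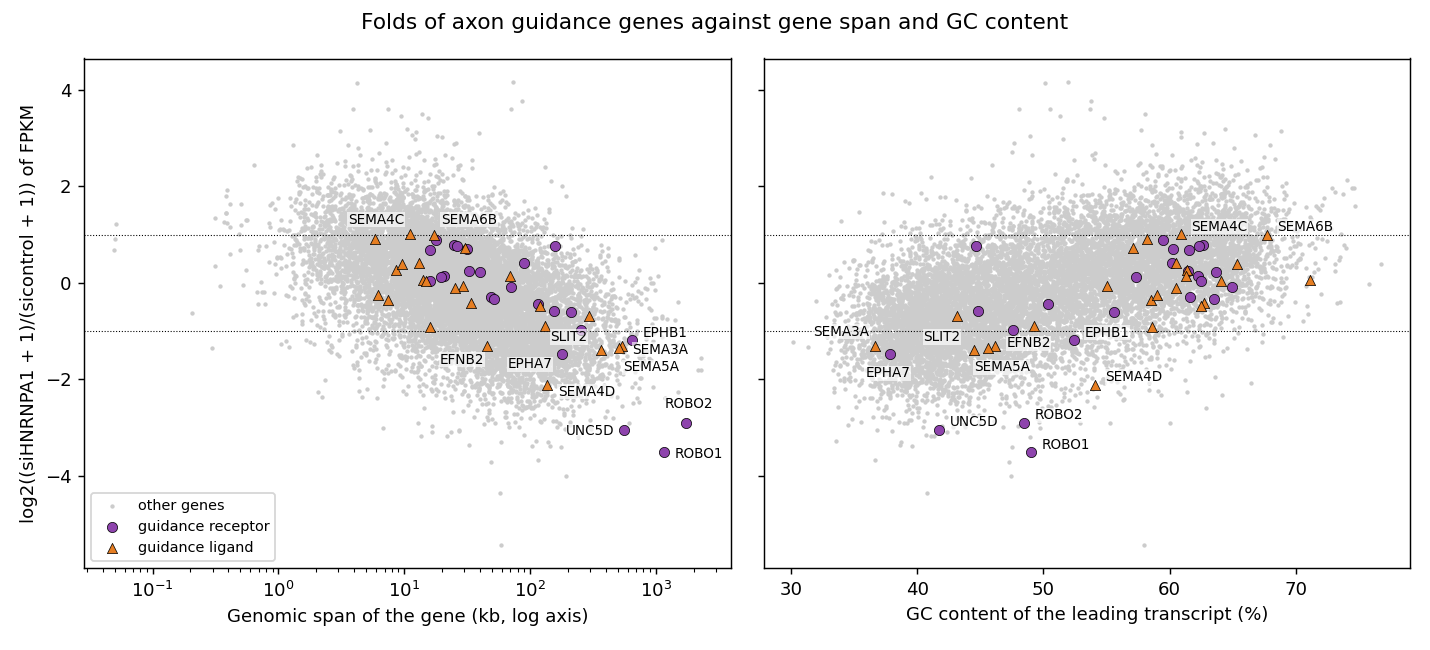
Log2 folds of FPKM against genomic span (left, log axis) and GC content of the leading transcript (right) for the guidance receptors (purple circles), guidance ligands (orange triangles) and all other genes kept (grey). The fold is lower for longer and AT-richer genes of both kinds, and ROBO1, ROBO2 and UNC5D lie under most genes of similar span and GC content.

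Across the 48 guidance genes the fold had a Spearman correlation of -0.70 with genomic span, 0.60 with GC content and -0.40 with transcript length. Over all genes kept these values were -0.54 (n = 11921), 0.58 and -0.46 (n = 11916). Span and GC content themselves went together, with a correlation of -0.63 among guidance genes, and all genes come from the same 2 libraries, so the properties cannot be separated and their part in the folds was not tested. The median GC content was 59.2% for the guidance genes kept and 50.6% for all genes kept.

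Each fold was therefore also set against the median fold of the 100 genes nearest in level, GC content and length. GC content and length were those of the leading transcript, the one with the highest mean FPKM. After this subtraction 5 guidance genes were at least 2-fold lower, against 8.35% of all genes, and 1 was at least 2-fold higher, against 8.11%. ROBO2 stood at -2.91, ROBO1 at -2.78, SEMA4D at -1.94 and UNC5D at -1.61. The fifth was SEMA4G, at -1.19 after and -0.91 before subtraction. SEMA4G shares 1170 exon bases with MRPL43 on the opposite strand. The 6 other genes that had been lower lay between -0.66 (EPHB1) and -0.07 (SEMA3A), and SEMA4C and SEMA6B at 0.53 and 0.54. These 6 were also within 2-fold when 5 FPKM was added in place of 1 FPKM. The gene then higher was NRP1, at 1.57. With span added to the matched properties, the same 5 genes were lower (7.60% of all genes) and NRP1 was higher (7.40%), with ROBO2 at -2.47, ROBO1 at -2.26, SEMA4D at -1.57 and UNC5D at -1.47. ROBO1, ROBO2, UNC5D and SEMA4D were the guidance genes that stayed at least 2-fold lower under every alternative in which they were measured. The leading transcript of ROBO2 was ROBO2-210, with 805 bases and annotated without its 5′ start, while ROBO2-209 has 5919 bases. ROBO2 was thus matched to genes with short leading transcripts, which limits both of its subtracted values.

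**Figure D3:**
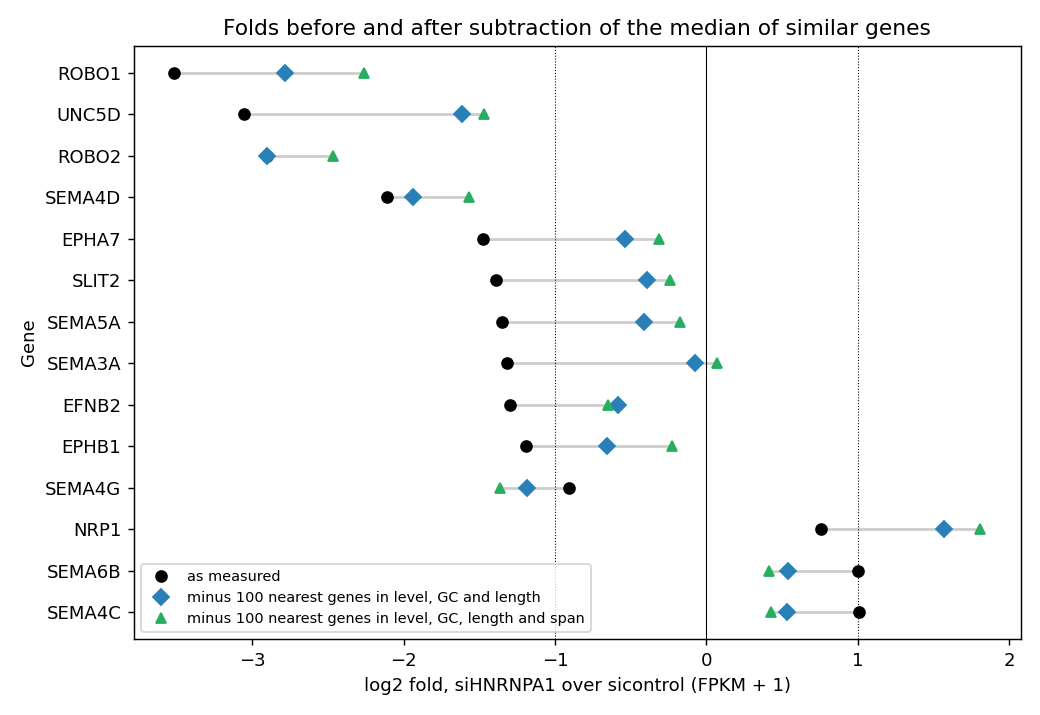
Log2 folds of 14 guidance genes as measured (black circles), after subtraction of the median of the 100 genes nearest in level, GC content and length (blue diamonds), and with genomic span added (green triangles). Dotted lines mark 2-fold. ROBO1, UNC5D, ROBO2 and SEMA4D stay beyond 2-fold under both subtractions, and the 6 genes from EPHA7 to EPHB1 move inside it.

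Transcript usage was compared for the 17 guidance genes that had 2 or more transcripts and reached 5 FPKM in each library. In 5 of them (29.4%) a transcript's share of the gene's FPKM differed by at least 20 percentage points, against 40.6% of 5715 genes. They were SEMA3F (82.5 points), SEMA7A (80.2), NEO1 (27.9), PLXNB2 (24.9) and SEMA6C (22.7). At a minimum of 2 FPKM it was 10 of 26 guidance genes, against 43.0% of all genes.

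SEMA3F exchanged its main transcript, while its total level in siHNRNPA1 cells was 73.3% of that in sicontrol cells. SEMA3F-201 made up 95.4% in siHNRNPA1 cells and 12.9% in sicontrol cells. SEMA3F-202 was listed at 0 of 2236 counts in siHNRNPA1 cells, which allows a share of up to 0.134%, and made up 66.8% in sicontrol cells (1650 counts). SEMA3F-206 was listed at 0 in siHNRNPA1 cells and made up 12.6% in sicontrol cells. The coding length is 2355 bases in SEMA3F-201, 2262 in SEMA3F-206 and 2058 in SEMA3F-202. SEMA3F-201 contains an in-frame exon of 93 bases at chr3:50175096-50175188 (GRCh38, plus strand) that the other 2 lack, and SEMA3F-202 differs further. The exon is shown in capitals with 20 transcript bases on either side.
SEMA3F 93-base exon: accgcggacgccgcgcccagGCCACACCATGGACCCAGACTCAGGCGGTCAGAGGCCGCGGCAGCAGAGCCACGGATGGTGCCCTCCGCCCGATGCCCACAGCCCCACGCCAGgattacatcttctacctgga
Its inclusion was 96.1% in siHNRNPA1 cells (2192 counts with and 40 without) and 13.5% in sicontrol cells (379 with and 2039 without). SEMA3F shares 110 exon bases with its antisense gene SEMA3F-AS1.

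SEMA7A, a lipid-anchored semaphorin that binds integrins and plexin C1, also exchanged transcripts. Its total level in siHNRNPA1 cells was 91.7% of that in sicontrol cells. SEMA7A-202, with 1503 coding bases, made up 75.1% in siHNRNPA1 cells and 0 of 989 counts in sicontrol cells, which allows a share of up to 0.303%. SEMA7A-201, with 1998 coding bases, made up 19.8% in siHNRNPA1 cells and 100% in sicontrol cells. In NEO1 the share of NEO1-208 was 97.5% in siHNRNPA1 cells and 69.6% in sicontrol cells, and this transcript is annotated without its 5′ start. In PLXNB2 the share of PLXNB2-213, a transcript with 480 coding bases, was 76.4% in siHNRNPA1 cells and 51.4% in sicontrol cells, while the transcript PLXNB2-201 with 5514 coding bases made up 15.8% in siHNRNPA1 cells and 31.3% in sicontrol cells. In SEMA6C the share of SEMA6C-204 was 23.1% in siHNRNPA1 cells and 0.337% in sicontrol cells. SEMA6C-201 led in both libraries, with 63.6% in siHNRNPA1 cells and 84.3% in sicontrol cells. In NEO1 and PLXNB2 the leading transcript by FPKM had a higher share in siHNRNPA1 cells. It was annotated as incomplete (NEO1-208) or with a short coding sequence (PLXNB2-213). On counts PLXNB2-213 led in siHNRNPA1 cells (3792, against 1447 for PLXNB2-201), but PLXNB2-201 led in sicontrol cells (2238, against 2002 for PLXNB2-213).

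**Figure D4:**
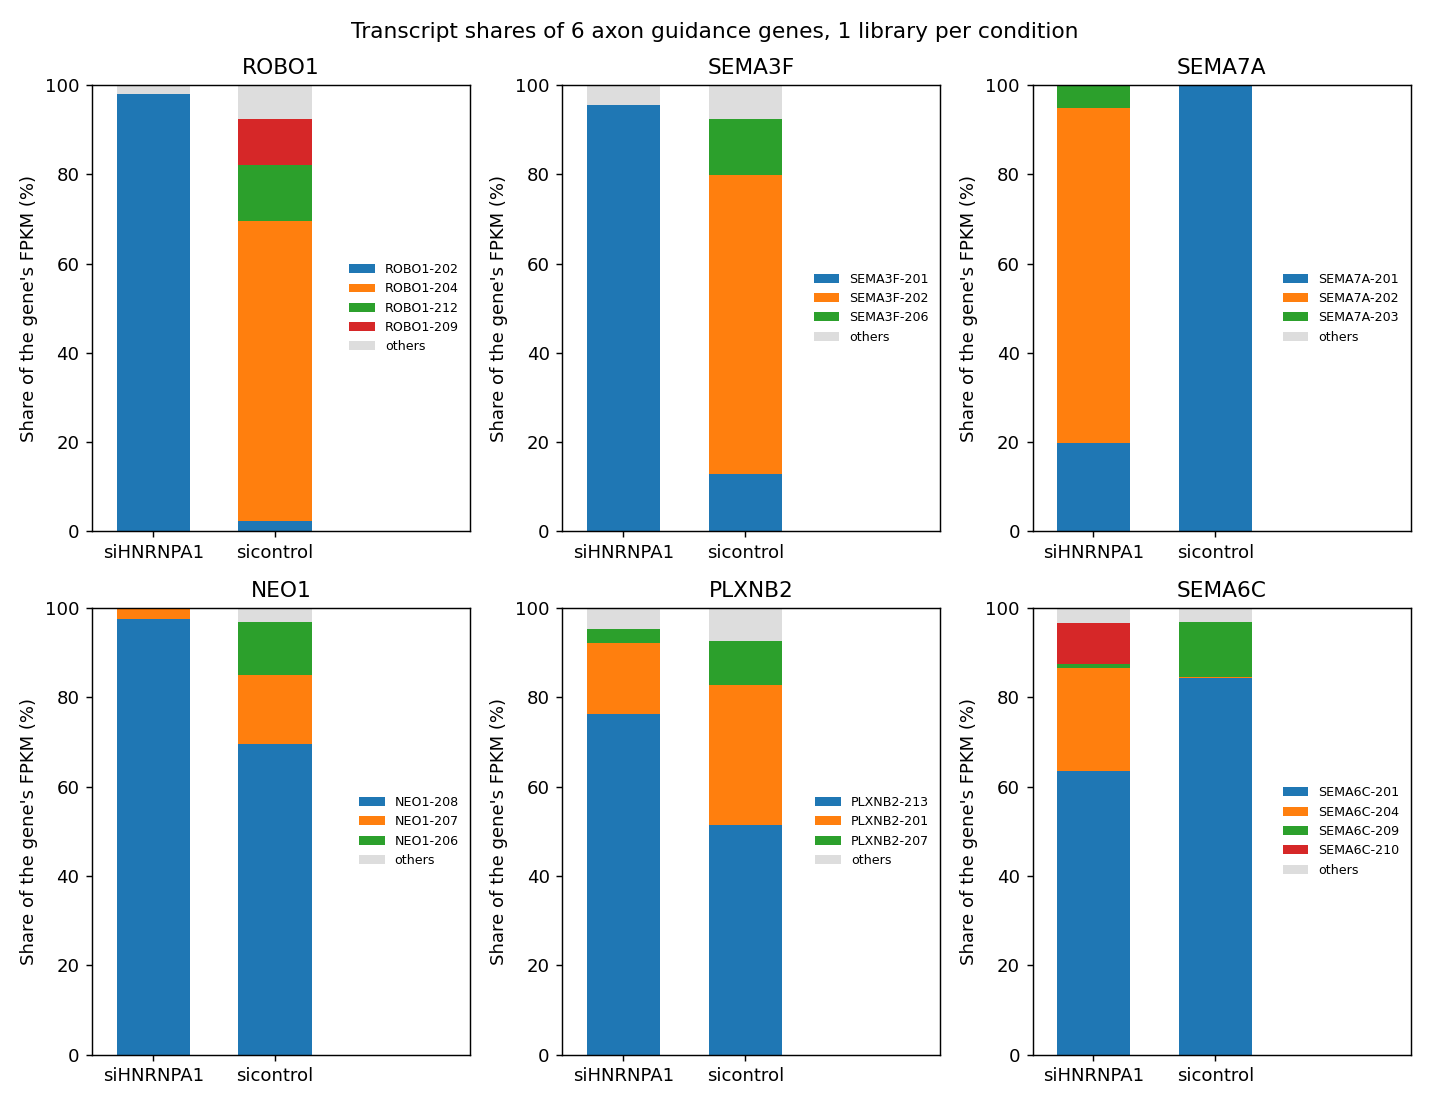
Share of the gene's FPKM in each transcript (%, stacked bars from 0) for ROBO1 and the 5 genes with a share difference of at least 20 points, in siHNRNPA1 cells (left bar) and sicontrol cells (right bar), 1 library each. By FPKM the main transcript differs between the libraries in ROBO1, SEMA3F and SEMA7A and is the same in NEO1, PLXNB2 and SEMA6C.

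Of 117 alternative internal coding exons of guidance genes, 65 (in 22 genes) had at least 1 FPKM in the transcripts used for inclusion in both libraries. Their inclusion differed by at least 20 percentage points for 6 (9.23%), against 15.1% of 17239 such exons of all genes. PLXNB2 holds 25 of the 65 exons, read from the same few transcripts, and none of the 6. Without PLXNB2 the count was 6 of 40 exons. The 6 were both ROBO1 exons, the SEMA3F exon, 2 exons of SEMA4F and 1 of PLXNB1. The SEMA4F exon of 99 bases had 94.7% in siHNRNPA1 cells (200 counts with and 2 without). In sicontrol cells it had 24.5% (50 with and 92 without). That of 94 bases had 94.7% in siHNRNPA1 cells, from the same counts, and 26.0% in sicontrol cells (60 with and 82 without). These SEMA4F exons are read from overlapping sets of transcripts and are not independent. The PLXNB1 exon of 34 bases had 48.2% in siHNRNPA1 cells (125 counts with and 88 without). In sicontrol cells it had 100% (362 with). The transcripts used for its inclusion held only 3.77% of the gene's FPKM in siHNRNPA1 cells and 9.81% in sicontrol cells. The transcripts with most of the gene's FPKM also reach across this exon. They were left out under the rule on overlapping exons of other boundaries, so these values do not describe the gene as a whole. SLIT2 fell below that level but has an exon of 24 bases at chr4:20525149-20525172 (plus strand), shown with 20 flanking transcript bases on either side because SLIT2 is the ligand of the receptors above and its main transcripts differ by this exon.
SLIT2 24-base exon: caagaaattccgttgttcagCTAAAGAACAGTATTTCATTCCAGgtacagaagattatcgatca
Its inclusion was 43.0% in siHNRNPA1 cells (38 counts with and 41 without) and 91.2% in sicontrol cells (506 with and 40 without). The SLIT2 and ROBO2 exons were named after their values had been seen.

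A list of 82 other guidance genes, made up of 25 ligands, co-receptors and adhesion partners and 57 signalling proteins, had 66 genes kept. Past 2-fold, 17 were lower (25.8%, against 21.9% of all genes) and 4 higher (6.06%, against 12.4%), with a median fold of -0.36. Among the 4 with the largest negative folds, ROCK1, the kinase downstream of RhoA that contracts the growth cone, had 0.370 FPKM in siHNRNPA1 cells and 9.95 FPKM in sicontrol cells (log2 fold -2.999). CDON, a netrin and Hedgehog co-receptor, had 0.666 FPKM in siHNRNPA1 cells and 8.16 FPKM in sicontrol cells (-2.46). SRGAP2, which belongs to the Slit-Robo GTPase-activating proteins, had 4.47 FPKM in siHNRNPA1 cells and 25.1 FPKM in sicontrol cells (-2.26). ROCK1 and SRGAP2 have partial copies in the human genome that could share their reads. ARHGEF12, the exchange factor that couples B plexins to RhoA, had 0.925 FPKM in siHNRNPA1 cells and 6.02 FPKM in sicontrol cells (-1.87). The 4 higher genes were DPYSL4, of the collapsin response mediators, with 23.7 FPKM in siHNRNPA1 cells and 7.63 FPKM in sicontrol cells (1.52), RND1, which binds plexins (1.40), ERBB2, which associates with B plexins (1.33), and CDK5, a kinase of the semaphorin 3A response (1.03). After subtraction of the neighbour median, 8 of the 66 were lower (12.1%, against 8.35% of all genes) and 3 higher (4.55%, against 8.11%). The lower genes of the list included both partners of the lower receptors and kinases used by many pathways, at a share near that of all genes. The genes kept of the list had a median span of 105 kb, against 30.2 kb for all genes kept. Of all genes kept that span at least 100 kb, 49.0% were at least 2-fold lower, and the part of span in the list was not tested.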

How the data were processed

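Total RNA of H9 cells was made into messenger RNA libraries, per the labels' protocols. The deposited table holds, per the file headers, 3 measures of each transcript in each library. The counts, deposited by the authors as whole numbers, were treated as estimated counts. TPM and FPKM values were used as deposited. The names of the aligner, quantifier and annotation were not given in the sources used here. Mouse builds (GRCm38 and mm10) stand in the submitters' processing notes, while the table holds human identifiers, of which 349 of 350 guidance transcripts are in GENCODE release 29 (GRCh38). The table's 6 per-sample columns that match neither library were not used.

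FPKM was summed per gene, and genes with a mean of at least 1 FPKM were kept (11921). Folds used a pseudocount of 1 FPKM and were counted from 2-fold on. Intervals are exact Poisson for levels and conditional Clopper-Pearson for ratios of count shares, at 95%. GC content, length and exons come from GENCODE. The median fold of the 100 nearest genes was subtracted as an alternative, and matching on span was added after the data had been seen. Named genes are those of at least 1 FPKM, with full values for those past 2-fold and the highest of each family, and the 4 largest folds per direction of the partner list. The members and lists were chosen with earlier results of these data known. Scripts (Python 3.11.15, numpy 2.4.6, pandas 2.3.3, scipy 1.17.1) were tested on simulated data.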

Additional observations from a re-analysis of the deposited data

How the results depend on the processing

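With a pseudocount of 5 FPKM, 4 of 48 guidance genes were lower and 0 higher (all genes 7.94% and 7.05%), and 8 partner and signalling genes were lower and 2 higher. With a minimum mean of 5 FPKM, 3 of 28 guidance genes (all genes 18.8%) and 10 of 47 partner genes were lower, and the guidance median was 0.037. A pseudocount of 0.1 FPKM gave 14 lower and 3 higher (all genes 26.99% and 15.25%), and estimated counts per library size gave 13 and 3 (24.7% and 14.5%). TPM gave 13 lower and 0 higher guidance genes (28.0% and 10.5%) and a median of -0.24. Median-ratio scaling gave 10 lower and 4 higher (18.4% and 16.0%) and a median of 0.030. These scalings put the median of all genes at -0.28 (TPM) and 0.00 (median ratio), against -0.13, and the higher share of all 2-fold calls at 27.4% (TPM) and 46.5% (median ratio), against 36.2%. Subtraction of the 100 nearest genes gave 5 lower and 1 higher, a median of -0.24 and 8 lower partner genes. With span it gave 5 lower, 1 higher and 9 lower partner genes, and SEMA3A changed sign, at 0.067. The share difference of 20 points was met by 10 of 26 genes at a minimum of 2 FPKM (all genes 43.0%) and by 2 of 9 at 10 FPKM (37.8%), and a difference of 30 points by 2 of 17 (25.8%). The cause was not tested.

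No paired analysis was possible because each condition has 1 library. Transcript shares depend on an unstated division of reads. ROBO2, EPHA7, SEMA5A and SLIT2 rest on 32 to 81 counts in siHNRNPA1 cells.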
